A study of Mus musculus with 9 samples.

Results

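T-cell costimulation and checkpoint genes were followed here across mouse lung arrays, as the 10 genes Cd28, Ctla4, Icos, Pdcd1, Cd40lg, Cd80, Cd86, Icosl, Cd274 and Cd40. These are receptors of the CD28 family, their B7 family ligands, and the CD40 receptor with its ligand, taken by name under a rule that uses no measured value. All 10 were found on the array, among 19698 genes that could be named and tested, and each gene was read from its brightest probe. The lungs came from 10-week-old male C57BL/6 mice, with 4 arrays labelled control and 5 labelled irradiated, and the mice were anesthetized with zoletil and rompun during irradiation. The irradiated tissue is labelled as left lung, and the labels give no dose or time for an array, nor the side of the control lungs. The study itself used a focal high dose to the centre of the left lung as well as a lower dose spread over the left lung, and it sampled several times. Per the methods, the RNA of triplicates was pooled within a time point before labelling. An array is therefore taken as a pool of mice, though the labels do not say so. The p-values below measure the spread between these arrays, which may include different times or regions. If the arrays are pools, this is not the spread between single mice.

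A naive T cell needs a signal from its antigen receptor and another from costimulation, which comes when CD28 binds CD80 or CD86 on an antigen-presenting cell. CTLA-4 takes the same ligands and restrains the cell, PD-1 does so after binding PD-L1, and ICOS adds help through ICOS ligand. CD40 ligand on helper T cells works in the other direction, since it activates dendritic cells, macrophages and B cells through CD40. In the lung these proteins are known from T cells, alveolar macrophages and dendritic cells, and PD-L1 is also made by epithelial and endothelial cells.

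Over all arrays, without regard to how they were scanned, none of the 10 genes was called different between irradiated and control lungs. The count was 0 of 10 at an adjusted p under 0.05 in limma, against 0.416% of all genes. At so small a share, 0 of 10 says little about these genes, and a missing call does not show that a gene is unchanged. At an unadjusted p under 0.05 the count was again 0 of 10, against 12.3% of all genes, but this count depended on the arrays and the model. It was 4 of 10 without irradiated 1, where 4277 of 39246 probes were under 0.05. With scan pairs, described next, as either kind of block it was 5 of 10. Of all 39303 probes, 8198 were then under 0.05 with the pair as a block and 8897 with the pairs as a random block. Pdcd1 had the largest difference, at 1.03 on the log2 scale. The values of the groups overlapped for every one of the 10 genes. Over all genes the groups did not overlap for 5.15%, and 0 of 10 is near that share. The fit put 7 genes higher and 3 lower in irradiated lung. Their median log2 difference was 0.26, beside 0.008 over all genes, where 51.9% were higher. A log2 intensity is the base-2 logarithm of the spot brightness after the 9 arrays were given the same distribution of values, and levels of different genes on that scale are not compared, because each probe has its own brightness.

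Arrays of opposite groups were found in pairs that share features of their scan, and there the picture was different. Control 1 shared them with irradiated 2, control 2 with irradiated 3, control 3 with irradiated 4 and control 4 with irradiated 5, while irradiated 1 had no partner. Within the pairs, 5 of the 10 genes were higher in the irradiated array in all 4 pairs, namely Ctla4, Icos, Pdcd1, Cd86 and Cd274, against 17.9% of all genes, and 0 of 10 were lower in all 4, against 17.3%. With the pair as a block in limma, Ctla4 and Cd274 passed, 2 of 10 genes against 3.82% of all genes, and both were higher, as were 2.26% of all genes in that fit. That fit leaves out irradiated 1 in effect, since an array without a partner adds nothing to a within-pair difference. With the pairs as a random block, which keeps all 9 arrays, 0 of the 10 brightest probes passed, against 9.45% of all genes, and Ctla4 and Cd274 were at an adjusted p of 0.156 and 0.2196.

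**Figure D1:**
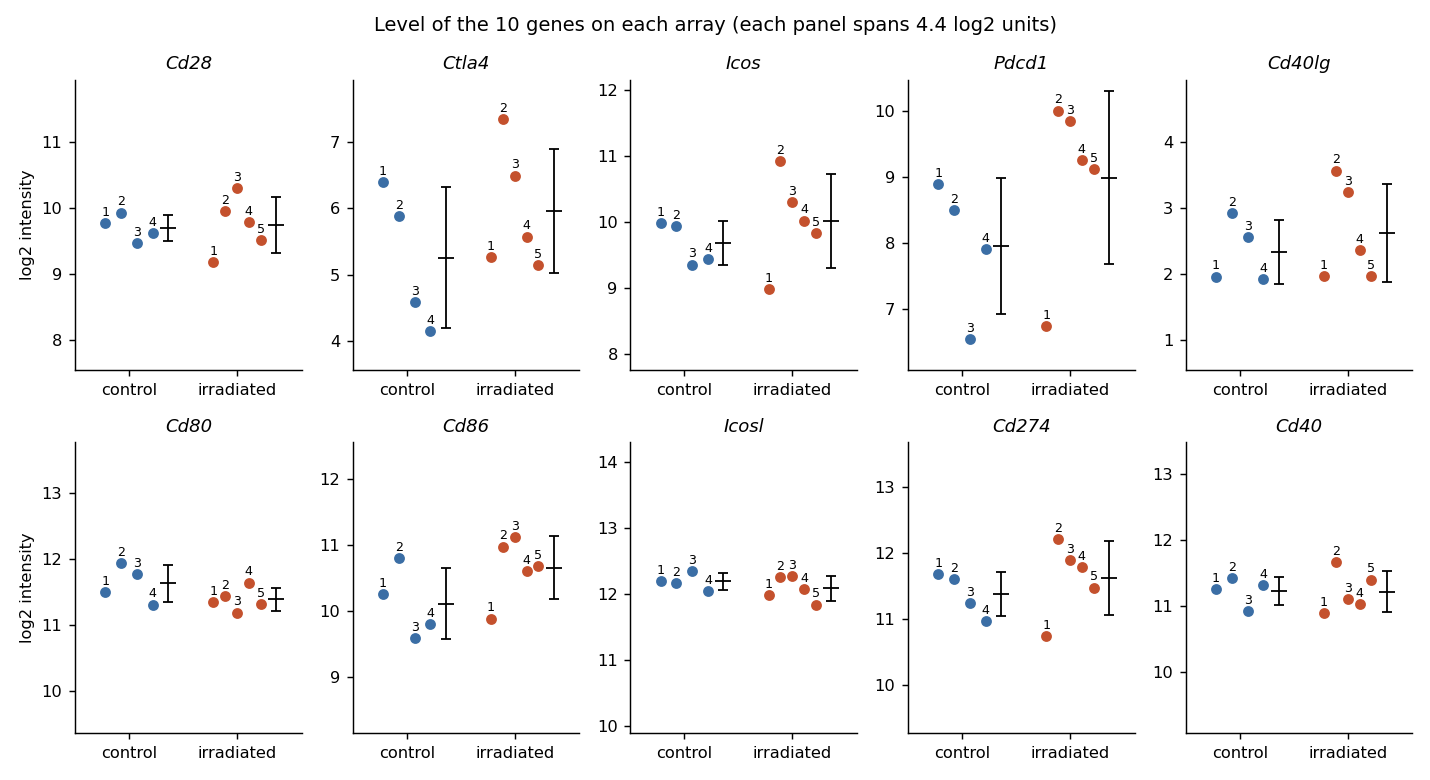
Log2 intensity (vertical axis) of each of the 10 genes on the 4 control (blue) and 5 irradiated (red) arrays, with the replicate number above each point and the group mean ± SD as a black bar; every panel spans the same 4.4 log2 units. Irradiated array 1 is the lowest irradiated array for Cd28, Icos, Pdcd1, Cd86, Cd274 and Cd40, and narrowly for Cd40lg, which is not well above background on any array. The groups overlap in every panel.

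The upstream sequences of 3 genes are shown because these genes were higher in all 4 scan pairs and have an entry in the promoter table, each as the 250 bases before the annotated start, from RefSeq on GRCm38.p6. Capitals mark the letters GGAAA, the core of sites for NFAT, a calcium-dependent factor of T-cell activation, on either strand (TTTCC where it lies on the other strand).
Ctla4 at chr1:60908775-60909024, plus strand: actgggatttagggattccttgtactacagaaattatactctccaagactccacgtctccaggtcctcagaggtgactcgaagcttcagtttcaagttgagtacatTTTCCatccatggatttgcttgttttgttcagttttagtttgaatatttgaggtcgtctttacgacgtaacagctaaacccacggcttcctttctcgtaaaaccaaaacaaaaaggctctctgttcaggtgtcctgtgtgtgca
Pdcd1 at chr1:94052554-94052803, minus strand: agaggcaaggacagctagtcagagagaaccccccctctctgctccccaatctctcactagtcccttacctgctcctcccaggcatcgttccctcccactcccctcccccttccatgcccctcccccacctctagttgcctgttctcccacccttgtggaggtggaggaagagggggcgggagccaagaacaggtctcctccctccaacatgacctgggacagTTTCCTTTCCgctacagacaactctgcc
Cd274 at chr19:29367188-29367437, plus strand: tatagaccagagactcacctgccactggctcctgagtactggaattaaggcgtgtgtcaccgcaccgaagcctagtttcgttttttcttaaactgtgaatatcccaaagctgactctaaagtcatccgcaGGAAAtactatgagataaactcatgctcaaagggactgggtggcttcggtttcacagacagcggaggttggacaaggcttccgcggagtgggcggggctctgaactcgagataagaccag

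Pdcd1 held 2 copies of the NFAT core, which stand side by side, Ctla4 and Cd274 held 1 each, and Cd80 and Icosl held 0. These letters are common, as 55.6% of 32851 upstream windows of the same length hold them. The 5 genes with a table entry (Ctla4, Pdcd1, Cd80, Icosl and Cd274) were also searched on both strands for TGANTCA, the AP-1 site, which Cd80 held once and 6.75% of windows hold. A search for TTCNNNGAA, the gamma-activated site of interferon-gamma responses, found 0 copies in the 5 genes, and 7.02% of windows hold it. Its ends can overlap the NFAT core in part. A match is a run of letters and not a shown binding site.

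Pdcd1 encodes PD-1, an inhibitory receptor that appears on activated T cells and stays on those exposed to antigen for long. Its log2 intensity was 8.88, 8.49, 6.54 and 7.90 on control arrays 1 to 4 and 6.74, 10.00, 9.84, 9.24 and 9.11 on irradiated arrays 1 to 5. Irradiated arrays 2 to 5 all lay above the highest control, and irradiated 1 lay below all controls but 1. The group means were 7.95 ± 1.03 (SD, n = 4) and 8.99 ± 1.31 (SD, n = 5), a log2 difference of 1.03 with a standard error of 0.68 (adjusted p = 0.7102, limma). As a fold this is 2.05, with a 95% interval from 0.713 to 5.87, so that neither a moderate decrease nor a large increase lies outside it. Within scan pairs 1 to 4 the differences were 1.11, 1.34, 2.71 and 1.21, and the fit with the pair as a block gave 1.59 ± 0.29 (SE, adjusted p = 0.0609). Irradiated 1 and control 3 hold the low Pdcd1 values of their groups. Without irradiated 1 the difference was 1.58 (adjusted p = 0.186), and without irradiated 1 and control 3 it was 1.12 (adjusted p = 0.201).

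Ctla4 encodes CTLA-4, which competes with CD28 for its ligands and is carried in large amounts by regulatory T cells. The gene was dim, with log2 intensities of 6.40, 5.89, 4.58 and 4.14 on the control arrays and 5.27, 7.36, 6.50, 5.57 and 5.14 on the irradiated arrays, yet its probe was well above background on all 9. Controls 3 and 4 were the lowest 2 arrays, and irradiated 2 and 3 were the only arrays above all controls. The difference of the group means, 5.25 ± 1.07 (SD, n = 4) and 5.97 ± 0.94 (SD, n = 5), was 0.71 with a standard error of 0.58 (adjusted p = 0.788). The differences within scan pairs were 0.95, 0.61, 1.00 and 0.99, which is a narrow range next to the spread of the controls. With the pair as a block Ctla4 was higher in irradiated lung by 0.89 ± 0.13 (SE, adjusted p = 0.0446).

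Icos encodes the inducible costimulator, which appears on T cells once they are activated. Its brightest probe read 9.98, 9.94, 9.35 and 9.44 on the control arrays and 8.98, 10.93, 10.30, 10.02 and 9.84 on the irradiated arrays. Here irradiated 2, 3 and 4 lay above all controls and irradiated 1 below all of them, with a difference of 0.33 ± 0.33 (SE, adjusted p = 0.840). Scan pairs 1 to 4 gave 0.94, 0.36, 0.67 and 0.40, and the block fit gave 0.59 (adjusted p = 0.0712). A dimmer Icos probe ordered the arrays alike at the ends, with irradiated 2 highest and irradiated 1 lowest, and gave a difference of 0.22 ± 0.44 (SE, adjusted p = 0.946) and 0.51 in the block fit (adjusted p = 0.109).

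Cd28, the receptor that gives naive T cells their first costimulatory signal, read 9.76, 9.92, 9.46 and 9.61 on the control arrays and 9.18, 9.94, 10.30, 9.78 and 9.51 on the irradiated arrays. The irradiated arrays spread to both sides of the controls, with irradiated 1 lowest and irradiated 3 highest. The difference was 0.05 ± 0.21 (SE, adjusted p = 0.983), with a 95% interval from -0.42 to 0.53. In the scan pairs it was 0.18, 0.37 and 0.32 in the first 3 and -0.10 in the fourth, and the block fit gave 0.19 (adjusted p = 0.344).

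Cd40lg, the ligand that helper T cells use to activate CD40-bearing cells, was not well above background on any of the 9 arrays. Its log2 intensity lay between 1.92 and 2.93 on control arrays and between 1.97 and 3.57 on irradiated arrays, so that no fold is given, and it counts among the 7 higher genes by its fitted value alone.

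**Figure D2:**
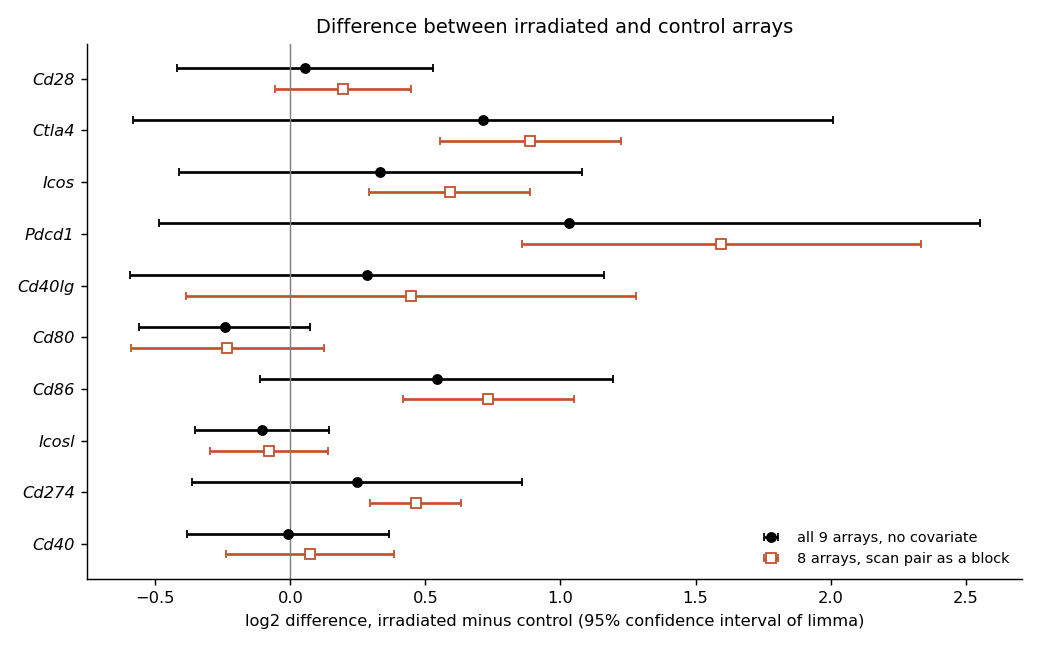
Log2 difference of irradiated minus control (horizontal axis) for each gene with its 95% confidence interval, from limma without covariates (black circles, 9 arrays) and with the scan pair as a block (open red squares, 8 arrays). All intervals of the first kind include 0, while those of the block fit lie above 0 for Ctla4, Icos, Pdcd1, Cd86 and Cd274 before adjustment for the number of probes tested.

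Among the ligands and receptors of antigen-presenting cells, Cd86 had the largest difference. Cd86, the B7 ligand that resting dendritic cells and macrophages already carry, read 10.25, 10.79, 9.58 and 9.80 on the control arrays and 9.88, 10.97, 11.12, 10.60 and 10.67 on the irradiated arrays. Irradiated 2 and 3 were above all controls, irradiated 4 and 5 were above all controls but control 2, and irradiated 1 lay among the lower controls. The means were 10.11 ± 0.54 (SD, n = 4) and 10.65 ± 0.48 (SD, n = 5), with a difference of 0.54 ± 0.29 (SE, adjusted p = 0.609). Scan pairs gave 0.71, 0.32, 1.02 and 0.88, and the block fit gave 0.73 ± 0.13 (SE, adjusted p = 0.0546).

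Cd274 encodes PD-L1, the ligand of PD-1, which interferon-gamma induces in many cell types. Its values were 11.68, 11.60, 11.23 and 10.97 on the control arrays and 10.74, 12.20, 11.88, 11.78 and 11.47 on the irradiated arrays. Irradiated 2, 3 and 4 lay above all controls and irradiated 1 below all of them. The difference over all arrays was 0.25 ± 0.27 (SE, adjusted p = 0.862). Its 4 within-pair differences, 0.52, 0.28, 0.55 and 0.50, had the smallest SD of the 10 genes at 0.12, and the block fit gave 0.46 ± 0.066 (SE, adjusted p = 0.0424), which passed.

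Cd80, the B7 ligand that is induced on activated antigen-presenting cells, was measured by 2 probes that differ in direction. The brighter probe read 11.51, 11.95, 11.77 and 11.31 on the control arrays and 11.35, 11.45, 11.19, 11.65 and 11.32 on the irradiated arrays, a difference of -0.24 ± 0.14 (SE, adjusted p = 0.653) and of -0.23 in the block fit (adjusted p = 0.417). No irradiated array was above the highest control on this probe. The dimmer probe read 6.42, 6.00, 5.46 and 6.05 on the control arrays and 6.32, 6.73, 6.51, 6.27 and 6.75 on the irradiated arrays. It was higher in all 4 scan pairs, with a difference of 0.53 ± 0.23 (SE, adjusted p = 0.457), which became 0.58 in the block fit (adjusted p = 0.0911) and 0.56 with the pairs as a random block (adjusted p = 0.0403). Which of the 2 probes follows the Cd80 transcript was not tested, and Cd80 has therefore no settled direction.

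Icosl and Cd40 differed little between the groups. Icosl, the ICOS ligand, ranged from 12.04 to 12.35 on control arrays and from 11.83 to 12.27 on irradiated arrays, with a difference of -0.11 ± 0.11 (SE, adjusted p = 0.851). Its 95% interval ran from -0.35 to 0.14, the narrowest of the 10 genes. Cd40, the TNF receptor family member through which T cells activate antigen-presenting cells, ranged from 10.92 to 11.41 on control arrays and from 10.89 to 11.66 on irradiated arrays. Its difference was -0.009 ± 0.17 (SE, adjusted p = 1.00), with an interval from -0.38 to 0.37, and in the scan pairs it was 0.41, -0.32, 0.10 and 0.09.

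**Figure D3:**
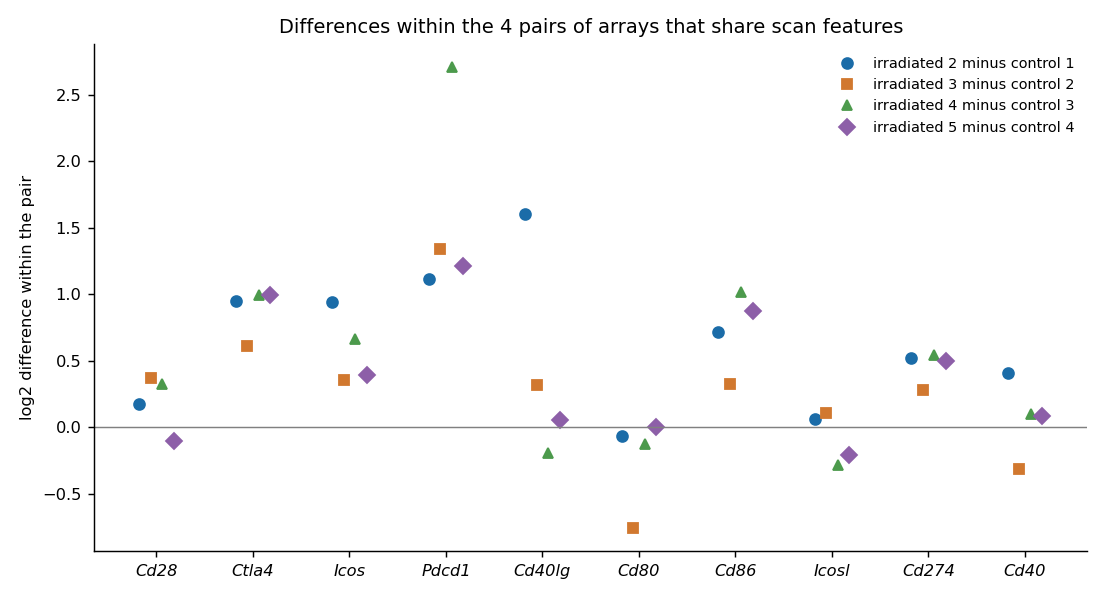
Log2 difference of the irradiated minus the control array (vertical axis) within each of the 4 pairs of arrays that share scan features, for each of the 10 genes, with 1 symbol and colour per pair. All 4 pairs are above 0 for Ctla4, Icos, Pdcd1, Cd86 and Cd274, and Cd80, Icosl and Cd40 have pairs on both sides of 0.

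The same few arrays were often at the ends of the order. Of the 9 genes above background, irradiated 2 had the highest value for 5 and irradiated 3 for 2, while irradiated 1 had the lowest value for 4 and control 3 for 2. The exceptions were Cd80 and Icosl, which were highest on controls 2 and 3, and control 4, irradiated 3 and irradiated 5, each the lowest array for 1 gene. A list of 15 T-cell markers, including the antigen receptor genes Cd3d and Cd3e, was well above background on every array, and its mean log2 level relative to the control mean ranged from -0.21 to 0.19 on control arrays and was -0.45, 0.54, 0.42, -0.10 and -0.16 on irradiated arrays 1 to 5. Irradiated 1 was lowest and irradiated 2 highest in this list too, and its median log2 difference was 0.04 (0.15 without irradiated 1 and 0.155 in the block fit), with 0 of 15 passing (0 at an unadjusted p under 0.05). Cd247, the zeta chain of the antigen receptor, had the largest difference at 0.36 ± 0.31 (SE). In the block fit Lat, an adaptor of the antigen receptor, passed at 0.60 (adjusted p = 0.0402), and with the random block 0 of 15 passed. Without irradiated 1, 1 of 15 passed, against 1.69% of all genes. Fewer T cells and less RNA per T cell cannot be told apart in tissue RNA.

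Set against the T-cell list on the same array, with the mean of the controls as 0, Pdcd1 was higher on irradiated arrays 2 to 5 than on any other array. It was 0.74, 0.45, -1.20 and 0.01 on the control arrays and -0.77, 1.503, 1.46, 1.39 and 1.32 on the irradiated arrays. The last 4 irradiated arrays lay close together and above all controls, and irradiated 1 lay below all controls but control 3. Icos on this scale ranged from -0.17 to 0.17 on control arrays and was -0.25, 0.70, 0.20, 0.44 and 0.32 on irradiated arrays. Again irradiated 2 to 5 were above all controls, irradiated 3 only narrowly, and irradiated 1 was below all of them. Ctla4 relative to the T-cell list overlapped widely, from -1.04 to 0.96 on control arrays and from 0.044 to 1.56 on irradiated arrays. Cd28 ranged from -0.29 to 0.19 on irradiated arrays against -0.12 to 0.14 on control arrays. Irradiated 3 and 4 lay narrowly above all controls and irradiated 2 below them. These ratios are given as a description with no test, and no share of T cells follows from them.

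**Figure D4:**
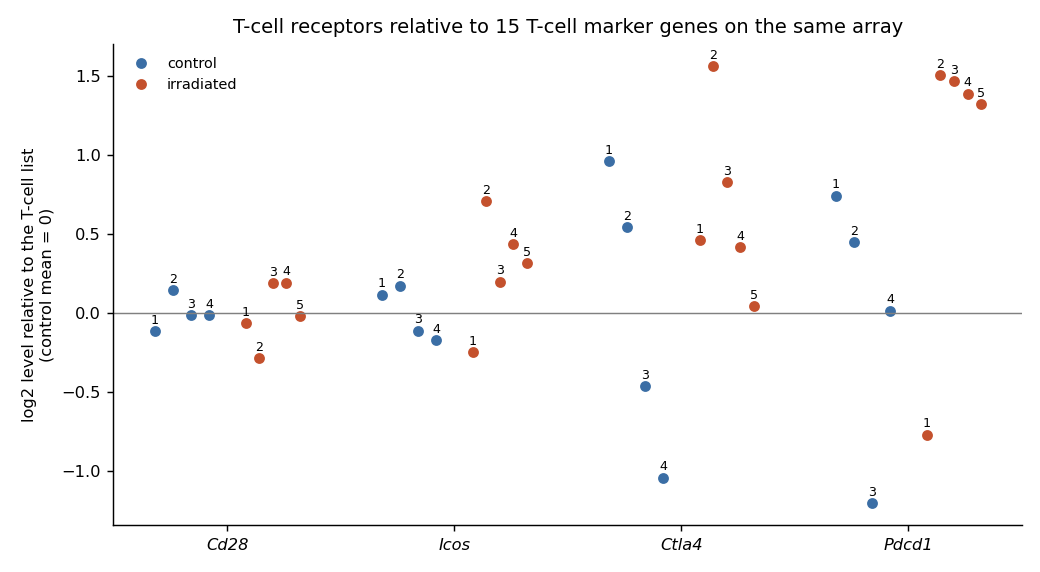
Log2 level of Cd28, Icos, Ctla4 and Pdcd1 minus the mean log2 level of 15 T-cell markers on the same array, with the control mean set to 0 (vertical axis), for control (blue) and irradiated (red) arrays numbered by replicate. Irradiated arrays 2 to 5 lie between 1.32 and 1.503 for Pdcd1, above all controls, and irradiated 1 lies at -0.77.

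Regulatory T-cell genes were also above 0 by their median, at 0.20 over 6 genes, of which 0 passed (0 at an unadjusted p under 0.05). Foxp3, their defining transcription factor, differed by 0.49 ± 0.32 (SE, adjusted p = 0.703) and was higher in all 4 scan pairs, with 0.71 in the block fit (adjusted p = 0.0847). Il2ra, the high-affinity interleukin-2 receptor chain, differed by 0.40 (adjusted p = 0.608) and passed in the block fit at 0.60 (adjusted p = 0.0340), while 0 of the 6 genes passed with the random block. Ikzf2, which encodes Helios, was at -0.11 (adjusted p = 0.874). Gpr83, also in the list, was not well above background on any array, yet it counts in the median and in the list mean. Ctla4 against this list ranged from -0.89 to 0.98 on control arrays and from -0.19 to 1.68 on irradiated arrays. Icos against it ranged from -0.085 to 0.13 on control arrays and from -0.47 to 0.83 on irradiated arrays. Here only 2 irradiated arrays lay above all controls for Icos, and 1 lay below them. The part of regulatory T cells in the Ctla4 and Icos values was not tested.

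Of the antigen-presenting cells that carry the ligands, dendritic cells and macrophages were followed here by lists of 10 genes each. In either list 0 passed (3 and 5 at an unadjusted p under 0.05, where 12.3% of all genes were). Their median log2 differences were 0.41 and 0.40, and in each list 8 genes were higher and 2 lower. In the block fit 1 and 3 passed (Cd209a, and Adgre1, Mertk and Cd14), against 3.82% of all genes, and with the random block 3 and 5, against 9.45%. Without irradiated 1, 2 dendritic cell genes and 1 macrophage gene passed, against 1.69% of all genes. Without control 1, 0 dendritic cell genes and 1 macrophage gene passed, against 49 of 38695 probes. Itgax, the integrin that marks dendritic cells and alveolar macrophages, differed by 0.70 ± 0.17 (SE, adjusted p = 0.1498). Xcr1, a chemokine receptor of cross-presenting dendritic cells, differed by 1.01 (adjusted p = 0.597) but was well above background on only 3 of 4 control arrays, and Fscn1, an actin-bundling protein of mature ones, by 0.89 (adjusted p = 0.361). Adgre1, the macrophage marker F4/80, did not overlap between groups, with a difference of 0.72 ± 0.17 (SE, adjusted p = 0.138), and passed in the block fit at 0.86 (adjusted p = 0.0423), and Chil3, a secreted protein of alveolar macrophages, differed by 0.68 (adjusted p = 0.604). Mrc1, the mannose receptor, did not overlap either, at 0.60 (adjusted p = 0.0652), so that the groups did not overlap for 2 of 10 macrophage genes, against 3.4% of all genes higher. The lower genes were Marco, a scavenger receptor of alveolar macrophages, at -0.63 (adjusted p = 0.773), the integrin Itgam at -0.51 (adjusted p = 0.288), both lower in all 4 scan pairs, and in the dendritic list the homing receptor Ccr7 at -0.26 (adjusted p = 0.724) and Siglech at -0.15 (adjusted p = 0.893). Cd86 relative to the dendritic list ranged from -0.12 to 0.31 on control arrays and from -0.11 to 0.38 on irradiated arrays, and Cd274 from -0.21 to 0.27 and from -0.52 to 0.079. Cd40 relative to that list ranged from -0.20 to 0.27 on control arrays and from -0.75 to -0.20 on irradiated arrays, with the groups almost touching. Icosl had 4 of 5 irradiated arrays below all controls (-0.74 to -0.095 against -0.40 to 0.57) and Cd80 had 3 of 5 (-1.07 to -0.17 against -0.35 to 0.55). Relative to the macrophage list, 3 irradiated arrays lay below all controls for Cd80 and Cd40, 2 for Icosl and 1 for Cd86 and Cd274, and 1 lay above all controls for Cd274. B cells, which CD40 ligand also activates, were left out of these ratios. In their list 9 of 10 genes were lower by the fit, with a median of -0.32 and 0 passing. The part of dendritic cells, macrophages or B cells in the values of Cd80, Cd86, Icosl, Cd274 and Cd40 was not tested.

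Of 40 other costimulation and checkpoint genes, 38 were found and 31 of these were well above background on all arrays. None passed in irradiated against control (0 of 38, with 6 at an unadjusted p under 0.05, where 12.3% of all genes were), 29 were higher and 9 lower, and their median log2 difference was 0.16. With the scan pair as a block 4 of 38 were called higher, against 2.26% of all genes, and 0 lower, with the random block 5 passed, against 9.45%, and 15 of 38 were higher in all 4 pairs, beside the 17.9% of all genes given above. The groups did not overlap for 3 of 38, all higher, against 3.4% of all genes.

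Cd200r1, an inhibitory receptor of macrophages and other myeloid cells, came closest. It read 8.44, 8.29, 8.09 and 7.99 on the control arrays and 8.81, 9.18, 9.31, 9.68 and 9.23 on the irradiated arrays, so that the groups did not overlap and irradiated 1 stood with its group. The difference was 1.04 ± 0.18 (SE), just outside the threshold (adjusted p = 0.0514), and the block fit gave 1.15 (adjusted p = 0.0383). Cd70, the ligand of the costimulatory receptor CD27, had a larger difference of 1.16 ± 0.57 (SE, adjusted p = 0.552), but its probe was well above background on only 2 control and 4 irradiated arrays.

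The TNF superfamily ligands lay highest among the subfamilies, with 6 of 6 higher by the fit and a median of 0.65, though only 3 of the 6 were well above background on all arrays and Tnfsf4, the ligand of OX40, on none. The medians were 0.27 for 5 further members of the B7 and CD28 families and 0.10 for 7 TNF superfamily receptors. Tnfsf9, the ligand of the costimulatory receptor 4-1BB, read 10.32, 10.34, 9.96 and 9.63 on the control arrays and 10.34, 10.76, 11.12, 11.14 and 10.48 on the irradiated arrays. The lowest irradiated array was level with the highest control at 2 decimals, the difference was 0.71 ± 0.21 (SE, adjusted p = 0.249), and the block fit called it at 0.81 (adjusted p = 0.0473). Tnfsf15, a ligand of the receptor DR3, did not overlap either, with 8.73 to 9.54 on control arrays and 9.54 to 10.13 on irradiated arrays and a difference of 0.59 ± 0.19 (SE, adjusted p = 0.266). Tnfsf18, the ligand of GITR, differed by 0.96 (adjusted p = 0.426) but was well above background on only 1 control and 3 irradiated arrays.

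Further inhibitory receptors of T cells were measured beside Pdcd1. Havcr2, which encodes TIM-3 and is carried by T cells and myeloid cells, differed by 0.63 ± 0.21 (SE, adjusted p = 0.300) and passed in the block fit at 0.71 (adjusted p = 0.0314). Lag3, a receptor for class II molecules, read 7.12, 6.96, 6.90 and 7.17 on the control arrays and 6.52, 8.09, 7.82, 8.09 and 7.52 on the irradiated arrays, so that irradiated 2 to 5 lay above all controls and irradiated 1 below them. Its difference was 0.57 ± 0.31 (SE, adjusted p = 0.605), and 0.84 in the block fit (adjusted p = 0.0666). Tigit differed by 0.72 ± 0.56 (SE, adjusted p = 0.773), with irradiated 1 near the lowest control and not well above background there. Pvr, the ligand of TIGIT, differed by 0.39 (adjusted p = 0.260) and passed in the block fit at 0.47 (adjusted p = 0.0459). Pdcd1lg2, the other ligand of PD-1, differed by 0.32 ± 0.48 (SE, adjusted p = 0.909), with irradiated 2 at 9.87 and all other arrays at or below 8.39. Of the other inhibitory receptors named here, all but Cd5 were near 0 or lower by the fit, and none passed over all arrays. Cd5 was at 0.18 (adjusted p = 0.939) and higher in all 4 scan pairs, with 0.42 in the block fit (adjusted p = 0.114). Btla was at -0.18 (adjusted p = 0.667) and Cd244a at -0.50 (adjusted p = 0.643), each higher in 1 of 4 scan pairs, Cd96 was at 0.05 (adjusted p = 0.988), and Cd160, well above background on 2 control and 2 irradiated arrays, was at -0.05 (adjusted p = 0.998). The genes of this list beyond Cd70 and Cd200r1 were named after their values had been seen.

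**Figure D5:**
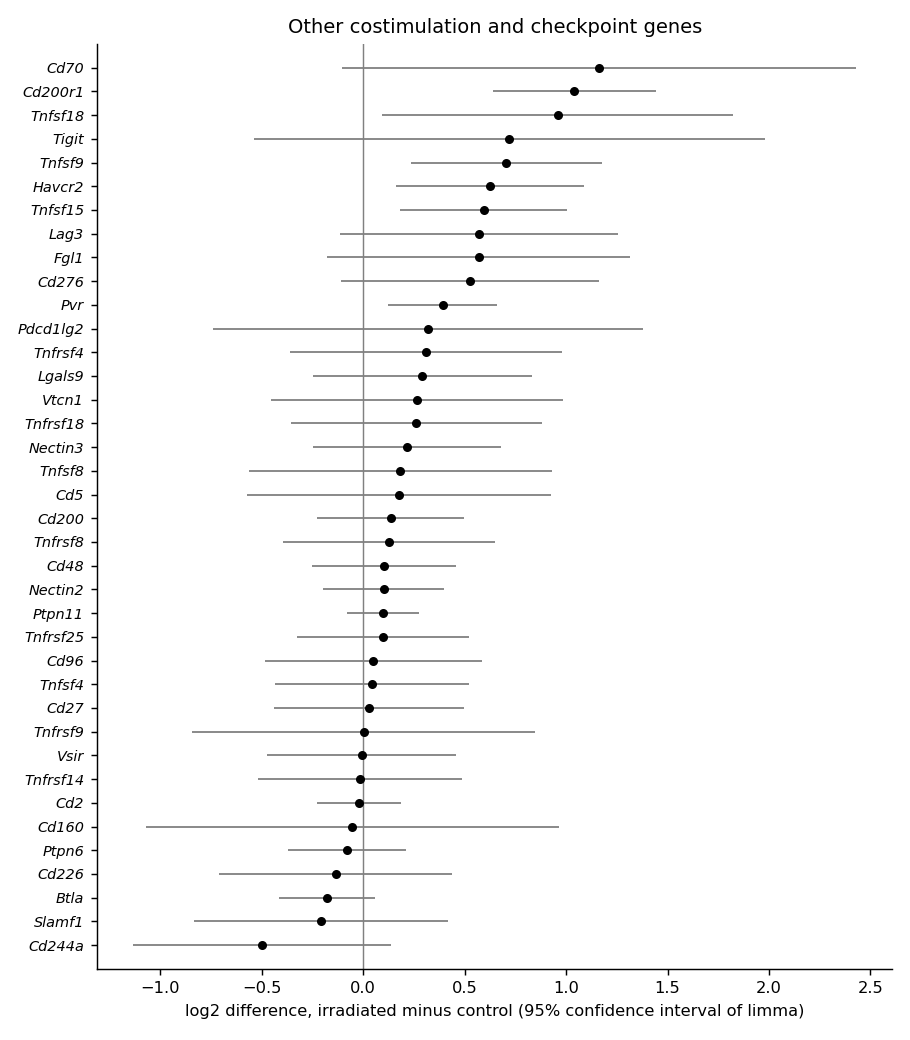
Log2 difference of irradiated minus control (horizontal axis) with its 95% confidence interval from limma for the 38 other costimulation and checkpoint genes, ordered by size. The 2 largest differences are 1.16 for Cd70 and 1.04 for Cd200r1, and no gene passes at an adjusted p under 0.05.

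The pathways on either side of the 10 genes gave no call over all arrays, and a few in the block fit. In costimulatory signalling 0 of 16 genes passed (2 at an unadjusted p under 0.05, against 12.3% of all genes, and 2 passing with the random block, against 9.45%), with a median log2 difference of 0.03, and the largest differences were 0.55 for Malt1, the paracaspase that carries the antigen receptor signal to NF-kB (adjusted p = 0.452), and 0.44 for the survival gene Bcl2l1 (adjusted p = 0.322), which passed in the block fit at 0.40 (adjusted p = 0.0422). In CD40 signalling 0 of 12 passed (2 unadjusted, and 3 passing with the random block), with a median of 0.09, and the largest were 0.37 for Relb, a subunit of alternative NF-kB (adjusted p = 0.567), and 0.30 for Tnfaip3, which dampens NF-kB (adjusted p = 0.392). Traf3, an adaptor that CD40 recruits, differed by 0.25 (adjusted p = 0.378) and passed in the block fit at 0.31 (adjusted p = 0.0473). In interferon-gamma signalling, which induces PD-L1, 0 of 10 passed (0 unadjusted, and 0 passing in the block fit or with the random block), 9 were higher and the median was 0.13. In the block fit 7 of the 10 were under 0.05 before adjustment, where 8198 of 39303 probes were. In all 4 scan pairs 6 of the 10 were higher, against 17.9% of all genes. Their median was 0.24 in the block fit and 0.24 without irradiated 1. Ifng itself differed by 0.40 ± 0.56 (SE, adjusted p = 0.903) and its feedback inhibitor Socs1 by 0.42 (adjusted p = 0.803). The class II genes, which present the antigen that a costimulated T cell sees, were higher in 6 of 6 with a median of 0.29 and 0 passing (1 unadjusted), and in the block fit 4 of 6 were called higher, against 2.26% of all genes. With the random block, which called 9.45% of all genes, 1 of 6 passed. Without irradiated 1 the median of the class II genes was 0.45 and 0 passed. At an unadjusted p under 0.05 there were then 5 of 6, where 4277 of 39246 probes were. Over all arrays the largest differences were H2-Aa at 0.43 (adjusted p = 0.497, and 0.0498 in the block fit) and H2-Eb1 at 0.37 (adjusted p = 0.666, and 0.0276 in the block fit).

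By the rule for likeness, the 3 genes outside all lists whose values over the 9 arrays lay closest to those of Pdcd1, each centred on its control mean, were Ccl8, a chemokine that draws monocytes and T cells, at a root mean square distance of 0.346, Olfr78, an olfactory receptor, at 0.415, and Tnfsf11, the ligand RANKL, at 0.448. The median distance over 19483 genes was 1.34. Ccl8 read 13.78, 13.05, 10.98 and 11.93 on the control arrays and 11.52, 14.81, 14.56, 14.38 and 13.68 on the irradiated arrays, with the same low control 3 and low irradiated 1 as Pdcd1. Its difference was 1.35 ± 0.73 (SE, adjusted p = 0.605). Olfr78 was well above background on only 5 arrays.

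Some facts of the whole series bear on these values. Over all probes 131 of 39303 passed, 75 higher and 56 lower, which is 0.333%. That balance turned under other settings, to 52 higher and 72 lower with 75th percentile scaling, 56 and 58 with normexp, and 11 and 33 in the authors' table. Between 72.8% and 89.1% of gene spots on an array were well above background, and no spot was saturated. The lung marker Sftpc was at the top of the intensity range on every array, where quantile normalization fixes the values, and Cd4 and Cd8a, which mark the main T-cell classes, were well above background on all of them, with differences of -0.28 (adjusted p = 0.849) and -0.15 (adjusted p = 0.915), while those of Cd3d and Cd3e were 0.05 and -0.12. B-cell genes had a median difference of -0.32 (Bank1 at -0.57, adjusted p = 0.102) and platelet genes of -0.64 (Ppbp at -0.99, adjusted p = 0.0513, and Gp9 at -0.83, adjusted p = 0.157). Lung epithelium was at 0.12 (Aqp5 at 0.34, Ager at 0.29) and endothelium at -0.20 (Tek at -0.71, Pecam1 at 0.27), and 0 genes passed in any of these 4 lists (4, 4, 1 and 1 at an unadjusted p under 0.05, against 12.3% of all genes, and 3, 3, 0 and 1 passing with the random block, against 9.45%). The groups did not overlap for 3 of 10 B-cell and 3 of 6 platelet genes, all lower in irradiated lung. Over all genes the groups did not overlap for 5.15% in either direction. Without irradiated 1, 2 platelet genes passed as lower, against 1.69% of all genes. Arrays of both groups stood apart in muscle. Irradiated 1 was 5.62 below the control mean in 6 cardiac muscle genes (Nppa at 6.82, and Myh6 with a group difference of -1.97 that is -0.17 in the block fit), which lung veins with a cardiac muscle sheath carry, and control 3 was 4.93 above it in 6 skeletal muscle genes (Myh1 at 13.60, Ckm at 12.01). Their list medians were -1.26 and -1.69, again with 0 genes passing (0 unadjusted in both), and they moved to -0.20 without irradiated 1 and to -0.10 without control 3. These are also the arrays with low Pdcd1, and the part of the tissue taken in the values of the 10 genes was not tested. Without irradiated 1 alone 0 of the 10 genes passed, against 1.69% of all genes, and their median difference was 0.47. Without both arrays 0 of the 10 genes passed, against 0.539% of all genes, and their median difference was 0.45.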

How the data were processed

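Total RNA was labelled with Cy5 and read on Agilent mouse arrays of 1 colour. The deposited intensity values are those of Agilent Feature Extraction, and per the file headers the processed signal is already background-corrected. Per the methods, RNA was pooled over triplicate experiments and filtered on integrity, and probes over 1.4 times the local background were quantile normalized. The authors' deposited table of normalized intensity served as an alternative. Other deposited columns (spot positions and quality marks) were used to match and filter spots.

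The processed signal was taken here without control and outlier spots, for probes over 1.4 times background on at least 4 of 9 arrays (39303 of 39429), then log2 transformed and quantile normalized, and spots of a probe were averaged. Of the probes, 66.1% could be named through RefSeq accessions (GRCm38.p6), and a gene was read from its brightest probe by the mean of all arrays. Groups were compared with limma 3.58.1 in R 4.3.3 (lmFit, eBayes with an intensity trend, no covariate), with Benjamini-Hochberg adjustment over all probes and a threshold of 0.05. The script was tested on simulated data. The number of arrays limits the precision.

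Scan pairs are arrays of like image tilt (slopes within 0.002) and top offset (within 5 scanner units) at places over 1000 units apart. Nothing says what the partners shared. Their deviations from the group means correlated at 0.285, 0.201, 0.331 and 0.455 across probes. Deviations of arrays with the same replicate number correlated at 0.0622, -0.0171, -0.0486 and -0.167, so the numbers do not pair arrays.

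The rule that defines the 10 genes uses no measured value, but this group of genes, the lists and the tests were chosen with earlier results of these data known. Named genes were the 10 members, defining markers, the 2 largest differences of each list where fewer than 2 passed, and the 3 profiles nearest to the member with the largest difference. Further genes, several of them because they passed with the scan pair as a block, were named after their values had been seen. One marker is not reported here. Hhla2, Ceacam1, Zbtb46, Itgae, Cd68 and Siglec5 were not found among the named probes. Promoter entries were used for 5 of the 10 genes. Alternatives were another background correction, another scaling, other filters, the deposited table, each array left out, blocks, array weights, no trend, a stricter threshold and averaging a gene's probes.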

Additional observations from a re-analysis of the deposited data

Results flagged for a closer look

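In 4 of 50 groups of values 1 array lay far from the rest of its group by Dixon's criterion, and chance alone gives about 5% of groups. Pdcd1 on irradiated array 1 was at a log2 intensity of 6.74, while the other irradiated arrays lay between 9.11 and 10.00. On the same array the cardiac muscle list was at -5.62 relative to the control mean, with the others from -0.50 to 0.35, and the B-cell list at -0.46, with the others from -0.33 to -0.29. On control array 3 the skeletal muscle list was at 4.93, with the other controls from -2.02 to -1.42.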

How the results depend on the processing

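Of the 10 genes, 0 passed under every setting tried except the scan pair block, where 2 did (Ctla4 at 0.89 and Cd274 at 0.46). Leaving out each array in turn gave 0 throughout. At an unadjusted p under 0.05 it gave 0 to 4, the 4 coming without irradiated 1, where 4277 of 39246 probes were under 0.05. The median difference of the 10 genes ranged from 0.072 without irradiated replicate 2 to 0.47 without irradiated replicate 1. The sign held in all alternatives for Ctla4, Icos, Pdcd1, Cd86, Cd274, Icosl and Cd40lg, though Cd40lg could not be tested with the filter on all 9 arrays. Pdcd1 ranged from 0.56 without control replicate 3 to 1.58 without irradiated replicate 1. With 1 array left out Ctla4 ranged from 0.34 (without control 4) to 1.08 (without control 1), Icos from 0.11 (without irradiated 2) to 0.59 (without irradiated 1) and Cd274 from 0.099 to 0.46 (without the same arrays as Icos). Ctla4 was also at 0.31 with normexp, 0.36 in the authors' table and 0.44 with 75th percentile scaling, against 0.71. Cd28 turned to -0.0077 with 75th percentile scaling, to -0.020 in the authors' table, and ranged from -0.085 to 0.19 with 1 array left out (below 0 without control 3 or irradiated 3). Cd80 became 0.15 as the mean of its probes. Cd40 turned to 0.072 in the scan pair block, 0.040 with the random block and 0.045 with array weights, and ranged from -0.12 to 0.071 with 1 array left out. Of the other costimulation genes, 4 passed in the scan pair block, 5 with the random block (9.45% of all genes there), and 1 each with the filter on all 9 arrays, with array weights and with the mean of all probes, against 0; leaving out 1 array gave 0 to 1, with the 1 coming without irradiated 1.

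Over all probes, 131 passed, against 114 with normexp, 124 with 75th percentile scaling, 197 with the filter on all 9 arrays, 44 in the authors' table, 44 without the intensity trend, 205 with array weights, 5 at an adjusted p under 0.01, 1099 in the scan pair block and 2899 with the random block. Leaving out an array gave 5 (without control 3) to 485 (without irradiated 1), and every single array moved the count by over 1.5 times. With the replicate block 1 probe passed and 0 of the 10 genes; the numbers do not pair the arrays. Leaving out control 3 and irradiated 1 together was chosen after the data had been seen and gave 150. Scaling to the 75th percentile put the median of all probes at -0.07, against -0.0037. The cause of these changes was not tested. No slide block was run, because no slide was read from the files. Signal near background limits Cd40lg, Cd70, Tnfsf18, Tnfsf4, Cd160, Gpr83, Xcr1, Tigit and, less so, Ctla4.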
